A study of Homo sapiens with 12 samples.

Results

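The gene set described here is 9 target genes of the transcription factor p53: MDM2, CDKN1A, GDF15, GADD45A, SESN1, BBC3, FAS, TP53I3 and AEN. They were taken by symbol from the deposited count table, and all 9 were found among its 63241 genes. Polyadenylated RNA had been sequenced from T98G and U251, both established cell lines from human glioblastoma, a brain tumour. PEPD-OE libraries came from cells in which PEPD was over-expressed, and they were set beside NC libraries of the same line, an abbreviation that the labels do not spell out. The 4 groups were T98G PEPD-OE, T98G NC, U251 PEPD-OE and U251 NC, with 3 libraries each and 12 libraries in all. The sources used here do not give the vector, its promoter, the time of harvest or whether a group was 1 clone or a pool. Nor do the labels say that replicates came from separate cultures, so p-values measure the spread between these libraries, which may be technical.

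The transcription factor p53 binds a DNA element made of a pair of abutting half-sites and switches on genes for cell cycle arrest, DNA repair and cell death. Both lines are known to carry mutant p53, so levels of these genes are given here as measured and not as a readout of p53 activity. MDM2 is itself a p53 target and encodes the ubiquitin ligase that sends p53 to degradation, which closes a feedback loop. PEPD encodes prolidase, an enzyme that cleaves dipeptides ending in proline, and its protein is reported to bind p53. Many of the genes below are also raised by other stress pathways.

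Counts assigned to genes summed to 464056 (T98G NC replicate 1) to 924204 per library (median 772232); the number of reads sequenced is not given in the sources used here. Levels are given in CPM, counts scaled to a common library size by TMM, and 1 count was worth 1.07 to 2.11 CPM. The 9 genes held 1728 counts over the 12 libraries, which limits the precision of every value below. The strand setting of the counting is not given either, so any gene's counts may be partly or wholly reads of the opposite strand. Differences were tested with edgeR's quasi-likelihood test in 1 fit of all 12 libraries, two-sided, and called below 0.05 after Benjamini-Hochberg adjustment over 8773 genes.

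Per kilobase of annotated exon and summed over all libraries, GADD45A held the most counts, 197 per kb, followed by GDF15 with 158. FAS had 54.3 and CDKN1A 49.8 counts per kb. TP53I3 followed with 27.2, AEN with 26.9, MDM2 with 23.8, BBC3 with 14.8 and SESN1 with 3.91 counts per kb. The order was not the same in each group: GDF15 was level with GADD45A in U251 PEPD-OE (105 and 103 counts per kb) and had 2.87 counts per kb in T98G PEPD-OE, below FAS (13.6) and CDKN1A (7.21). SESN1, BBC3 and TP53I3 did not reach the minimum count of the test and are described by their counts, so 6 of the 9 genes were tested.

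Promoter windows of 300 bases, from 250 before to 50 after each annotated start, were found in RefSeq (GRCh38.p14) for 8 of the 9 genes. They were searched for the p53 consensus element of 20 bases, which is 2 half-sites of 10 bases with no spacer and reads the same on both strands. At least 17 of the 20 letters matched in a window of 5 genes, and in 6.39% of the 27305 genes with a window. At least 18 letters matched in 3 genes, MDM2, FAS and AEN, and in 0.820% of all genes. The best match of each of the 5 genes is shown as an example of the kind of element that p53 binds. They are written 5′ to 3′, capitals marking letters that match the consensus and lower case those that do not.

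MDM2 element: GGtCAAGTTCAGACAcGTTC

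FAS element: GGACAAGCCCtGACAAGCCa

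AEN element: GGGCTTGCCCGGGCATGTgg

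GDF15 element: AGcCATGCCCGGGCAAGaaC

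SESN1 element: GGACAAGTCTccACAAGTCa

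The MDM2 element lay at chr12:68808923-68808942, inside the gene in an intron, with its first base 94 bases before the internal start at position 68809017. This is the promoter known to respond to p53, and it is shown with its surroundings, the element in capitals.

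MDM2 context, chr12:68808873-68808992: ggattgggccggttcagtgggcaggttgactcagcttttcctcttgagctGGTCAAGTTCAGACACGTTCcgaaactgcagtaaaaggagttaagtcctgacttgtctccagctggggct

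The FAS element lay at chr10:88991309-88991328 and the AEN element at chr15:88621306-88621325, both in annotated exons. The GDF15 element was at chr19:18386186-18386205, in an annotated exon, with its first base 28 bases after the start. The SESN1 element was at chr6:109009018-109009037, in an intron; SESN1 is on the minus strand and the others named here are on the plus strand. In the windows of CDKN1A, BBC3 and TP53I3 the best match had 15 of the 20 letters. Sequence outside the windows was not searched, so an element there would not be seen. A match describes letters in the reference, not binding, and no binding was measured.

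In T98G, 4 of the 6 tested genes passed the test with PEPD-OE: FAS was higher, and MDM2, GDF15 and AEN were lower. Of all genes tested in T98G, 32.3% were called, 17.7% higher and 14.7% lower. In U251, GDF15 and GADD45A passed and both were higher, 2 of 6, against 8.55% of all genes (4.13% higher and 4.42% lower). DESeq2 gave another split over all genes in U251, 136 higher and 235 lower, where edgeR gave 362 and 388. The median log2 fold change of the 6 genes was -0.33 in T98G and 0.70 in U251, where the median of all tested genes was 0.00 in each line. Libraries of the groups did not overlap for 4 of the 6 genes in T98G and for 4 of 6 in U251, while over all genes this held for 43.5% and 22.4%.

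**Figure D1:**
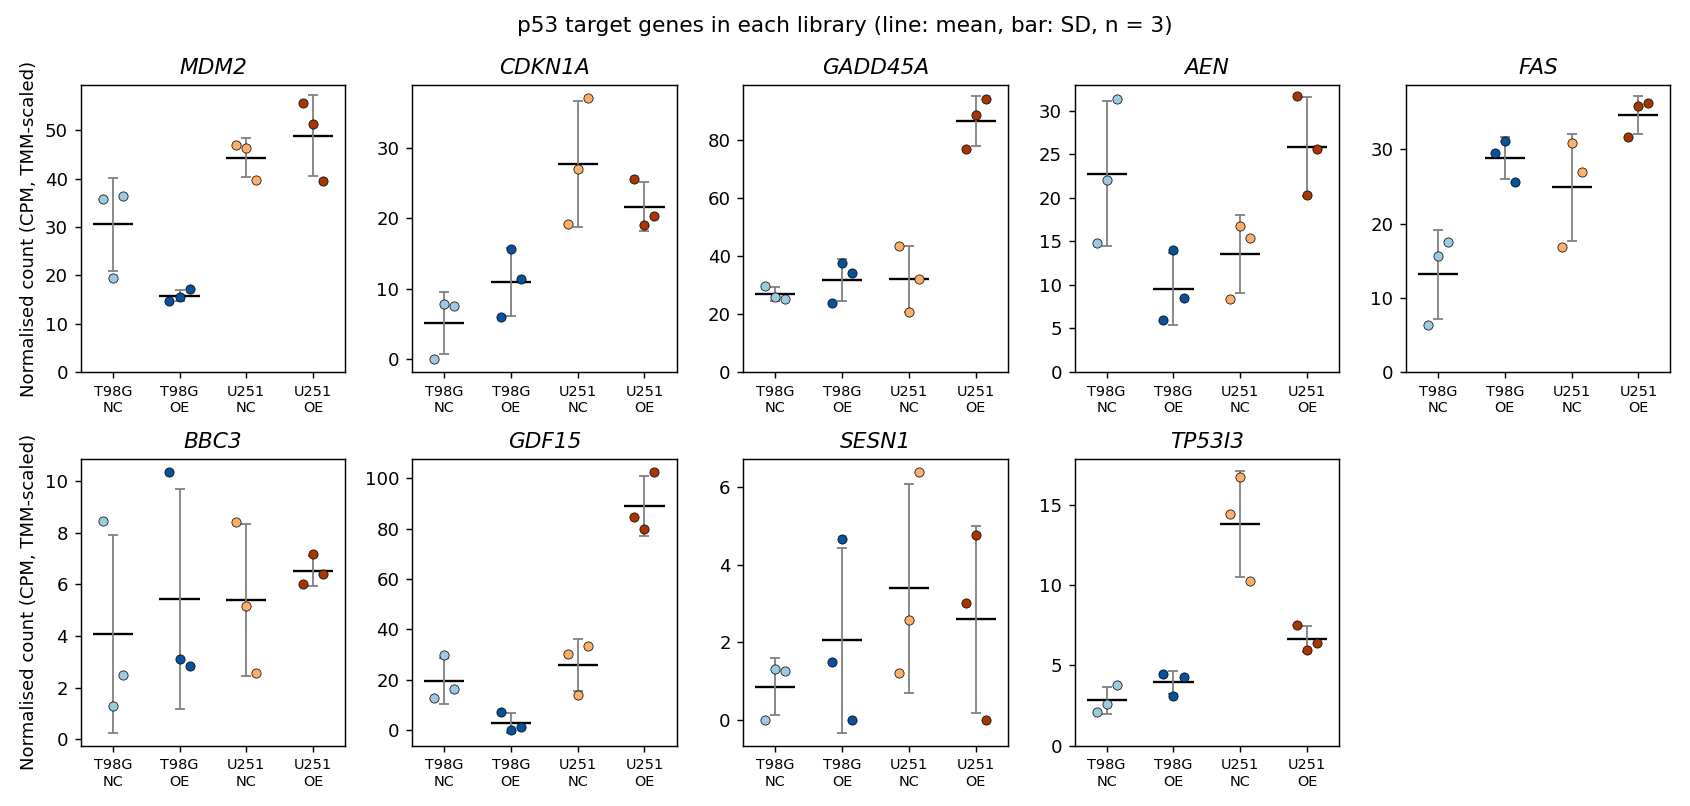
Normalised count in CPM (y axis, a scale for each gene) of the 9 p53 target genes in each library, by group (OE is PEPD-OE); points are libraries, lines are means and bars are SD, n = 3. GDF15 is highest in U251 PEPD-OE (80.0 to 103 CPM) and lowest in T98G PEPD-OE (0.0 to 7.4 CPM).

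PEPD itself followed the labels. It had 2 to 9 counts in the T98G NC libraries and 100 to 118 in T98G PEPD-OE, 5 to 11 counts in U251 NC and 113 to 175 in U251 PEPD-OE. The log2 fold change was 4.04 ± 0.25 (SE; adjusted p = 1.71e-32) in T98G and 4.16 ± 0.23 (adjusted p = 1.86e-35) in U251. The difference of these changes between lines was -0.12 ± 0.47 (adjusted p = 0.886).

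MDM2, the ubiquitin ligase for p53, had its lowest level in T98G PEPD-OE. Its T98G NC libraries had 35.9, 19.5 and 36.4 CPM, from 17, 15 and 29 counts. T98G PEPD-OE libraries had 14.8, 15.6 and 17.1 CPM, from 10, 10 and 12 counts. The groups did not overlap and MDM2 fell by 0.91 ± 0.32 on the log2 scale (adjusted p = 0.0203). In U251 the NC libraries had 46.9, 46.4 and 39.7 CPM and the PEPD-OE libraries 55.7, 51.3 and 39.5 CPM, which overlapped, with a log2 fold change of 0.12 ± 0.22 (adjusted p = 0.835). The T98G call was lost with DESeq2 (adjusted p = 0.119), without a filter (0.0519), and without T98G NC replicate 1 (0.0657) or 3 (0.165) or T98G PEPD-OE replicate 1 (0.0676) or 2 (0.0518).

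Most counts at the MDM2 locus were assigned to another gene. AC025423.4 (ENSG00000257181) is annotated as antisense RNA on the minus strand of chromosome 12, at 68841288 to 68843237. All 785 of its exon bases lie in the annotated 3′ UTR within the last exon of MDM2, a plus-strand gene at 68808176 to 68850686. It held 2507 counts to the 316 of MDM2, which is 3194 counts per kb against 23.8, or 134-fold more per length. The labels' protocol keeps the strand of origin, and the strand setting used for counting is not given in the sources used here. Over 248 pairs of an annotated antisense gene with at least 95% of its exon bases inside exons of a protein-coding gene, each pair with at least 100 counts, the antisense gene held more counts per kb in 82.7%, with a median log2 ratio of 4.05. Which strand the counts of MDM2, or of any other gene named here, came from was not tested. Such counts may therefore not be levels of the gene's mRNA.

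AC025423.4 had the same order of groups in T98G as MDM2, from far more counts. In T98G, NC libraries had 179, 195 and 178 CPM and T98G PEPD-OE libraries 158, 132 and 123 CPM, with no overlap. It fell by 0.42 ± 0.14 on the log2 scale (adjusted p = 0.0121). U251 NC libraries had 385, 377 and 351 CPM and U251 PEPD-OE libraries 455, 413 and 339 CPM, which overlapped (log2 fold change 0.11 ± 0.11, adjusted p = 0.662). The call in T98G was lost with DESeq2 (adjusted p = 0.0606), without T98G NC replicate 2 (0.0631), and without T98G PEPD-OE replicate 2 (0.0514) or 3 (0.104).

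**Figure D2:**
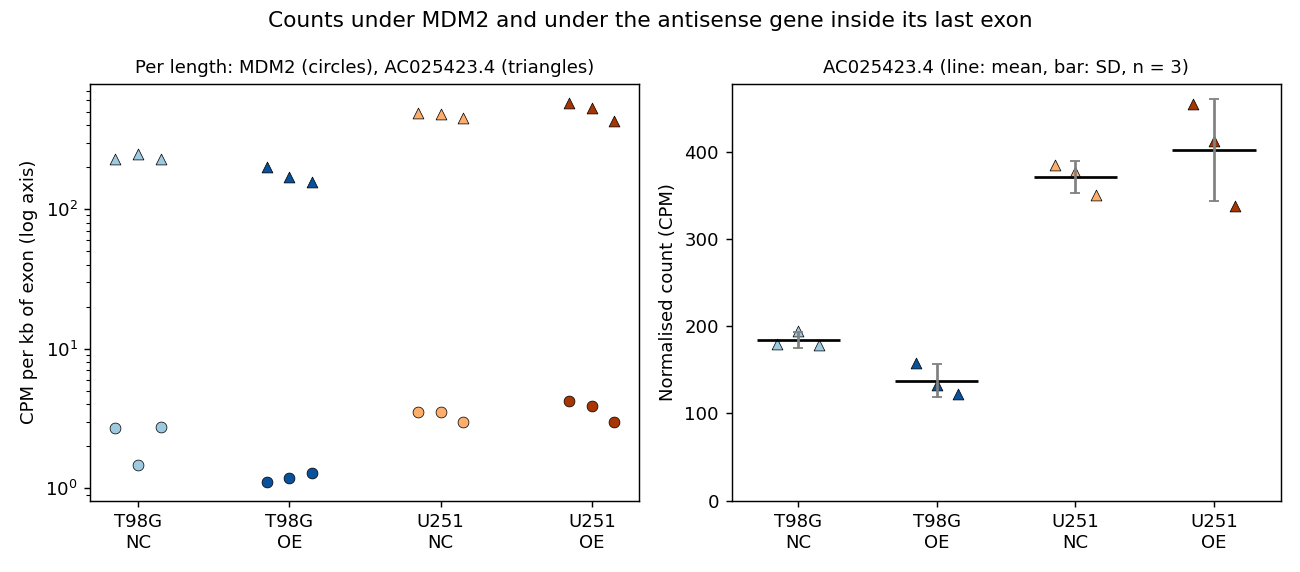
Left, CPM per kilobase of exon (log axis) of MDM2 (circles) and AC025423.4 (triangles) in each library by group. Right, CPM of AC025423.4 with mean (line) and SD (bar), n = 3; in T98G the NC libraries (178 to 195 CPM) lie above the PEPD-OE libraries (123 to 158 CPM), and U251 libraries are higher than both.

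MDM4, the relative of MDM2 that holds p53 inactive, had 12 counts over T98G NC and 27 over T98G PEPD-OE, and 27 and 30 counts in U251. Its log2 fold changes were 1.16 ± 0.55 (adjusted p = 0.0978) and 0.14 ± 0.45 (adjusted p = 0.915). PPM1D, a phosphatase that turns p53 signalling down, had log2 fold changes of 0.82 ± 0.52 (adjusted p = 0.237) in T98G and 0.49 ± 0.40 (adjusted p = 0.539) in U251. Neither passed the test in either line. The MDM4 value in T98G ranged from 0.37 to 2.37 with 1 library left out, and it was called without T98G NC replicate 3 (adjusted p = 0.0130) and without T98G PEPD-OE replicate 2.

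GADD45A, which acts in growth arrest and DNA repair after damage, rose in U251. U251 NC libraries had 43.3, 20.6 and 32.0 CPM and U251 PEPD-OE libraries 76.8, 88.3 and 94.0 CPM. The lowest PEPD-OE library was well above the highest NC library, and the mean went from 32.0 ± 11.4 to 86.4 ± 8.7 CPM (SD, n = 3). The log2 fold change was 1.43 ± 0.21 (adjusted p = 3.63e-08), and GADD45A was called in all 20 alternative settings. In T98G, the NC libraries had 29.5, 26 and 25.1 CPM and T98G PEPD-OE libraries 23.7, 37.4 and 34.2 CPM. The T98G groups overlapped, with a log2 fold change of 0.26 ± 0.29 (adjusted p = 0.533). GADD45A (chromosome 1, 67685061 to 67688338) shares no exon with a gene on the opposite strand in GENCODE release 29.

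CDKN1A encodes p21, the inhibitor of cyclin-dependent kinases through which p53 halts the cell cycle. Its T98G NC libraries had 0, 6 and 6 counts (0.0, 7.8 and 7.5 CPM) and T98G PEPD-OE libraries had 4, 10 and 8 counts (5.9, 15.6 and 11.4 CPM). The count of 0 in T98G NC replicate 1 allows up to 6.33 CPM, the worth of 3 counts there, counting error alone. U251 NC libraries had 19.3, 27.1 and 37.1 CPM and U251 PEPD-OE libraries 25.6, 19.1 and 20.3 CPM. The groups overlapped in both lines. The log2 fold changes were 0.88 ± 0.53 (adjusted p = 0.209) in T98G and -0.37 ± 0.31 (adjusted p = 0.553) in U251, and their difference was 1.25 ± 0.62 (adjusted p = 0.122). CDKN1A differed between the NC groups of the lines instead, as given below. DINOL, a noncoding gene on its opposite strand, had 5 counts in all.

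GDF15 changed most among the 9 genes, and in opposite directions. It encodes a secreted stress hormone of the transforming growth factor beta superfamily. In T98G NC libraries it had 6, 23 and 13 counts (12.7, 29.9 and 16.3 CPM), and T98G PEPD-OE libraries had 5, 0 and 1 counts (7.4, 0.0 and 1.4 CPM). The groups did not overlap, and the mean fell from 19.6 ± 9.1 to 2.9 ± 3.9 CPM (SD, n = 3). U251 NC libraries had 30.1, 14.2 and 33.3 CPM and U251 PEPD-OE libraries 84.4, 80.0 and 103 CPM. Every PEPD-OE library of U251 lay far above every NC library, and the mean rose from 25.9 ± 10.2 to 89.0 ± 11.9 CPM.

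On the log2 scale, GDF15 fell by 2.72 ± 0.53 in T98G (adjusted p = 1.12e-05) and rose by 1.78 ± 0.23 in U251 (adjusted p = 3.55e-10). The difference of -4.50 ± 0.57 (adjusted p = 2.16e-11) was the largest of the 9 genes. GDF15 was the only one of the 6 called in both lines, in opposite directions, which held for 3.98% of all genes. The size of the T98G change rests on few counts: without T98G PEPD-OE replicate 1 it was -4.50 (adjusted p = 1.39e-06). Fitted alone, T98G left GDF15 below the minimum count of the filter, and DESeq2 in U251 gave a log2 fold change of 1.76 (unadjusted p = 4.64e-06) but no adjusted p. GDF15 (chromosome 19, 18374731 to 18389176) has no exon overlap on the opposite strand in release 29.

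FAS encodes the death receptor for FAS ligand. In T98G, NC libraries had 3, 12 and 14 counts (6.3, 15.6 and 17.6 CPM) and T98G PEPD-OE libraries 20, 20 and 18 counts (29.6, 31.2 and 25.6 CPM). The groups did not overlap, and FAS rose by 1.01 ± 0.34 on the log2 scale (adjusted p = 0.0130). U251 NC libraries had 16.9, 30.9 and 26.9 CPM and U251 PEPD-OE libraries 31.6, 35.8 and 36.3 CPM. Here too the libraries did not overlap, by a narrow margin, and the log2 fold change of 0.49 ± 0.27 did not pass (adjusted p = 0.298). FAS was thus not shown to differ between lines in its change (0.53 ± 0.44, adjusted p = 0.404). The T98G call was lost with DESeq2 (adjusted p = 0.107) and without T98G NC replicate 1 (0.0843). The opposite strand holds ACTA2, with 88 counts to the 231 of FAS. FAS antisense RNA 1, with 128 counts, is not in release 29, and its place opposite FAS is taken from its name alone.

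AEN, a nuclease that cuts DNA and RNA during apoptosis, fell in T98G and did not pass the test in U251. The T98G NC libraries had 14.8, 22.1 and 31.4 CPM and T98G PEPD-OE libraries 5.9, 14.0 and 8.6 CPM. All NC libraries of T98G were above all PEPD-OE libraries, and AEN fell by 1.32 ± 0.40 (adjusted p = 0.00543). In U251, NC libraries had 8.4, 16.7 and 15.4 CPM and PEPD-OE libraries 31.6, 20.3 and 25.6 CPM. The U251 libraries did not overlap, and the log2 fold change of 0.92 ± 0.34 did not pass (adjusted p = 0.0743). The changes differed between lines by -2.24 ± 0.52 (adjusted p = 0.000311), called in all settings that gave it. The T98G call was lost with DESeq2 (adjusted p = 0.0945), without T98G NC replicate 3 (0.1001) and without T98G PEPD-OE replicate 1 (0.0541). AEN (chromosome 15, 88621296 to 88632282) has no exon overlap on the opposite strand in release 29.

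BBC3, which encodes PUMA, a killer protein of the BCL2 family, was near the limit of detection. The 12 libraries held 1 to 7 counts of BBC3 each. Its means were 4.1 ± 3.8 CPM in T98G NC, 5.4 ± 4.3 in T98G PEPD-OE, 5.4 ± 2.9 in U251 NC and 6.5 ± 0.6 in U251 PEPD-OE (SD, n = 3). The groups overlapped in both lines. Without the filter its log2 fold changes were 0.62 ± 0.75 (adjusted p = 0.705) in T98G and 0.26 ± 0.61 (adjusted p = 0.992) in U251.

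TP53I3, a quinone oxidoreductase also called PIG3, stood out among the weakly counted genes by its pattern in U251. U251 NC libraries had 12, 13 and 8 counts (14.4, 16.7 and 10.2 CPM) and U251 PEPD-OE libraries 5, 5 and 6 counts (7.5, 6.0 and 6.4 CPM). The U251 groups did not overlap, with NC higher. In T98G, NC libraries had 1, 2 and 3 counts and PEPD-OE libraries 3, 2 and 3. Without the filter the log2 fold change in U251 was -1.06 ± 0.49, with an unadjusted p of 0.0310 and an adjusted p of 0.441. It was the only one of the 9 genes whose U251 NC libraries lay wholly above its U251 PEPD-OE libraries, and it did not pass the test.

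SESN1, a sestrin that restrains the growth kinase mTORC1, had 20 counts over the 12 libraries. No library had more than 5 counts, and in T98G NC, T98G PEPD-OE and U251 PEPD-OE 1 library of each group had 0. A change was not detectable at this depth. AL390208.1, on its opposite strand, held 41 counts.

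**Figure D3:**
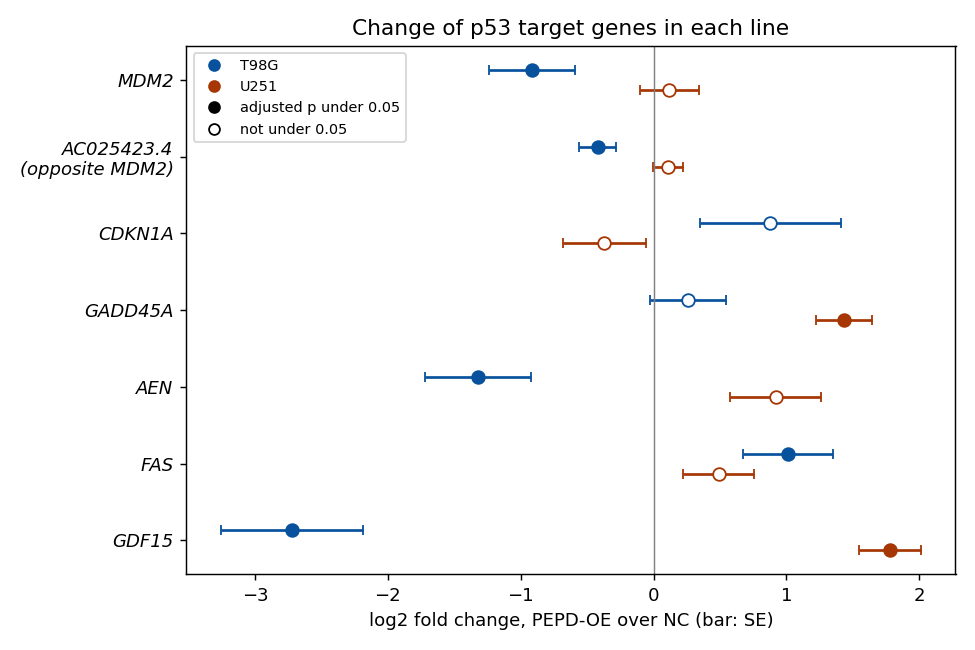
Log2 fold change of PEPD-OE over NC (x axis; bar: SE from the edgeR fit) of the 6 tested target genes and AC025423.4 in T98G and U251. Filled points passed an adjusted p of 0.05; GDF15 is at -2.72 in T98G and 1.78 in U251, while FAS is above 0 in both lines.

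The test of the difference between lines called 4 of the 6 genes, and in all 4 (MDM2, GDF15, GADD45A and AEN) the T98G change was lower than the U251 change. Over all genes 27.7% were called, 14.1% with the T98G change higher and 13.6% with it lower. The median difference was -1.10 for the 6 genes and -0.02 for all genes tested. GADD45A differed by -1.17 ± 0.36 (adjusted p = 0.00789), a call lost with DESeq2 (0.0915) and without U251 NC replicate 2 (0.0509). MDM2 differed by -1.03 ± 0.39 (adjusted p = 0.0370). This was lost with DESeq2 (0.201), with a filter of 1 CPM in 3 libraries (0.0708), with no filter (0.0979) and without any 1 of 8 of the 12 libraries (0.0520 to 0.170; kept without T98G NC replicate 2, U251 NC replicates 1 and 2 and U251 PEPD-OE replicate 3).

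Between the NC groups, which are also the references of the comparisons above, 3 of the 6 genes differed, 1 higher and 2 lower in T98G, against 48.7% of all genes (24.4% higher and 24.3% lower). Libraries of the NC groups did not overlap for 2 of the 6 genes, and for 55.1% of all genes. Among the 6 genes, CDKN1A had the smallest adjusted p (3.67e-06), with a log2 difference of -2.21 ± 0.43 (T98G minus U251). Its level was 5.1 ± 4.4 CPM in T98G NC and 27.8 ± 9.0 CPM in U251 NC (SD, n = 3). Fitted alone, T98G left CDKN1A below the minimum count of the filter. It was thus tested only through its higher U251 counts. FAS was lower in T98G NC (log2 difference -0.80 ± 0.34, adjusted p = 0.0411) and AEN higher (0.82 ± 0.36, adjusted p = 0.0468). The CDKN1A call was kept in all 19 settings that gave it, while that of FAS was lost with DESeq2 (0.186), with a filter of 1 CPM in 3 libraries (0.0676), with no filter (0.0929), and without T98G NC replicates 1 and 2 and U251 NC replicates 2 and 3 in turn (0.0649 to 0.184). The AEN call was lost in 11 of 19 settings, among them each of T98G NC replicates 2 and 3, U251 NC replicates 1 and 3 and U251 PEPD-OE replicates 2 and 3 left out (adjusted p up to 0.350). MDM2 was at 44.3 ± 4.0 CPM in U251 NC and 30.6 ± 9.6 in T98G NC (log2 difference -0.56 ± 0.25, adjusted p = 0.0545), without overlap of libraries. MDM2 was called in 5 of 19 settings, RLE scaling and 4 left-out libraries (adjusted p from 0.0337), and its value ran from -0.77 without T98G NC replicate 3 to -0.29 without T98G NC replicate 2. AC025423.4 was lower in T98G NC (log2 difference -1.01 ± 0.12, adjusted p = 1.52e-12).

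The order of the 4 groups differed from gene to gene. MDM2 ran from U251 PEPD-OE through U251 NC and T98G NC to T98G PEPD-OE, the first 2 groups overlapping and the other neighbours not. GDF15 had the same order, with U251 NC and T98G NC overlapping. GADD45A was high in U251 PEPD-OE alone, and the other 3 groups overlapped with their neighbours. AEN ran from U251 PEPD-OE through T98G NC and U251 NC to T98G PEPD-OE, and all neighbours overlapped. FAS had U251 PEPD-OE highest and T98G NC lowest.

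Beyond the 9 genes, 89 further genes of the pathway were listed by role, and 53 of them were tested. In T98G 10 rose and 6 fell with PEPD-OE, and in U251 2 rose and 5 fell. The shares of these 53 genes that were called stand beside 32.3% of all genes in T98G, which is near the 16 of 53, and 8.55% in U251. Their median log2 fold change was 0.27 in T98G and 0.09 in U251, where the median of all tested genes was 0.00. Of these calls, 8 of 16 in T98G and 2 of 7 in U251 were kept in every alternative setting that gave an adjusted p. The U251 pair is FANCC, with no value in 1 of 20 settings, and NINJ1, with none in 2. For NINJ1 these 2 are DESeq2 and U251 fitted alone, where it was below the minimum count of the filter. NINJ1 was thus tested in U251 only through its higher T98G counts. The change differed between lines for 16 of the 53 genes, near the 27.7% of all genes. TP53BP1, NINJ1 and CSF1, 3 of the 53, were called in both lines in opposite directions, near the 3.98% of all genes. None was called in both lines in the same direction, for which the share of all genes was not counted.

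Among the regulators of p53 (13 of 17 tested), 4 rose and 2 fell in T98G, and 1 rose in U251, where over all genes 17.7% rose and 14.7% fell in T98G and 4.13% rose in U251. CHEK1, a checkpoint kinase that phosphorylates p53, rose in T98G from 21.1 ± 5.7 to 57.0 ± 15 CPM (log2 1.49 ± 0.28, adjusted p = 3.50e-06). HIPK2, a kinase that marks p53 for apoptosis, rose from 102 ± 10 to 215 ± 30 CPM (log2 1.08 ± 0.15, adjusted p = 7.55e-10). Both calls were kept in every setting, and in U251 neither passed (adjusted p = 0.851 and 0.534). The other T98G calls, ATM and CHEK2 higher and TP53BP1 and CREBBP lower, were each lost with DESeq2 (adjusted p = 0.0810 to 0.226) and without at least 1 library. Those of ATM, CHEK2 and TP53BP1 were also lost with a filter of 1 CPM in 3 libraries (0.0562 to 0.0800) and with no filter (0.0782 to 0.122). That of TP53BP1 was lost with RLE scaling as well (0.0515). TP53BP1, whose product binds p53 and marks DNA breaks, fell by 0.27 ± 0.11 in T98G and rose by 0.42 ± 0.10 in U251 (adjusted p = 0.0377 and 0.00245). Left-out libraries ended the T98G call in 5 cases, most of all T98G PEPD-OE replicate 3 (adjusted p = 0.149), and the U251 call in 2, U251 NC replicate 1 and U251 PEPD-OE replicate 1 (up to 0.0598). The opposite strand of TP53BP1 holds TUBGCP4, with 3732 shared exon bases and 6145 counts to its 4891.

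Of the cell cycle targets (7 of 12 tested), PLK2 rose in T98G by 0.58 ± 0.20 (adjusted p = 0.0149), the only 1 of the 7 called where 32.3% of all genes were. The PLK2 call was lost with DESeq2 (adjusted p = 0.153) and without T98G NC replicate 3 (0.0859) or T98G PEPD-OE replicate 1 (0.0934). In U251, edgeR called 0 of these 7 genes (2 at an unadjusted p under 0.05) and DESeq2 called 0.

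Of the death targets (9 of 20 tested), 1 rose and 2 fell in T98G, and 1 rose in U251; over all genes 32.3% and 8.55% were called, near these shares. BID, which links death receptors to mitochondria, rose in T98G from 100 ± 5 to 265 ± 26 CPM (log2 1.40 ± 0.15, adjusted p = 7.89e-16), kept in every setting. In U251 BID had a log2 fold change of -0.36 ± 0.14 (adjusted p = 0.108). PMAIP1, which encodes the killer protein NOXA, fell by 0.96 ± 0.32 in T98G (adjusted p = 0.0137), lost with DESeq2 (0.124) and without T98G NC replicate 3 (0.0575) or T98G PEPD-OE replicate 1 (0.0993). IKBIP, the other gene that fell in T98G (log2 -0.87 ± 0.29, adjusted p = 0.0146), was lost with DESeq2 (0.161) and without T98G NC replicate 2 (0.1003), T98G PEPD-OE replicate 1 (0.0746) or T98G PEPD-OE replicate 2 (0.0574). BCL2L1, the gene of the survival protein BCL-XL, rose in U251 by 0.76 ± 0.19 (adjusted p = 0.00329), lost with DESeq2 (0.0561) and without U251 NC replicate 3 (0.0625). ABALON, on its opposite strand, held 10121 counts to its 451.

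Of the DNA repair targets (9 of 11 tested), GADD45B rose in T98G and FANCC fell in U251, 1 of 9 in each line against 32.3% and 8.55% of all genes. GADD45B, the relative of GADD45A, rose by 1.05 ± 0.31 (adjusted p = 0.00483), lost with DESeq2 (0.0765) and without T98G NC replicate 3 (0.118), and had -0.37 ± 0.23 in U251 (adjusted p = 0.369). FANCC, of the Fanconi anaemia repair complex, went from 51.1 ± 9.6 to 25.0 ± 10.7 CPM in U251 (log2 -1.09 ± 0.25, adjusted p = 0.00129) and was kept in every setting that gave it. GADD45A and GADD45B were thus called in different lines.

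Of the metabolic, redox and other targets (15 of 29 tested), 3 rose and 2 fell in T98G, and all 5 calls were kept in every setting that gave them. The 5 of 15 is near the 32.3% of all genes. In U251, 4 fell, where 4.42% of all genes did. CSF1, the growth factor of macrophages, rose from 67.6 ± 11.2 to 185 ± 12 CPM in T98G (log2 1.48 ± 0.17, adjusted p = 4.54e-14). It fell by 0.89 ± 0.23 in U251 (adjusted p = 0.00578), a call lost without U251 NC replicate 2 (0.0672). NINJ1, a membrane protein of dying cells, rose in T98G by 1.27 ± 0.23 (adjusted p = 2.33e-06) and fell by 1.80 ± 0.44 in U251 (adjusted p = 0.00237). The U251 change of NINJ1 rests on few counts, 8 to 17 per NC library and 2 to 5 per PEPD-OE library. It was tested only through the higher T98G counts of the gene. TRIM22 fell by 1.93 ± 0.33 in T98G (adjusted p = 2.61e-07). SCO2, needed to assemble cytochrome c oxidase, fell by 1.15 ± 0.25 (adjusted p = 5.54e-05). CMBL rose in T98G by 1.48 ± 0.28 (adjusted p = 3.66e-06). In U251, SESN3, a sestrin like SESN1, fell by 1.12 ± 0.32 (adjusted p = 0.0131), lost without U251 NC replicate 2 (0.0894) or 3 (0.0542). PHPT1, a histidine phosphatase, fell by 0.85 ± 0.29 in U251 (adjusted p = 0.0450). The PHPT1 call was lost without T98G NC replicate 3, any U251 NC replicate, or U251 PEPD-OE replicate 1 or 2 (0.0503 to 0.352). It was also lost with a filter of 1 CPM in 3 libraries (0.0862), with no filter (0.119) and without robust estimation (0.0510).

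**Figure D4:**
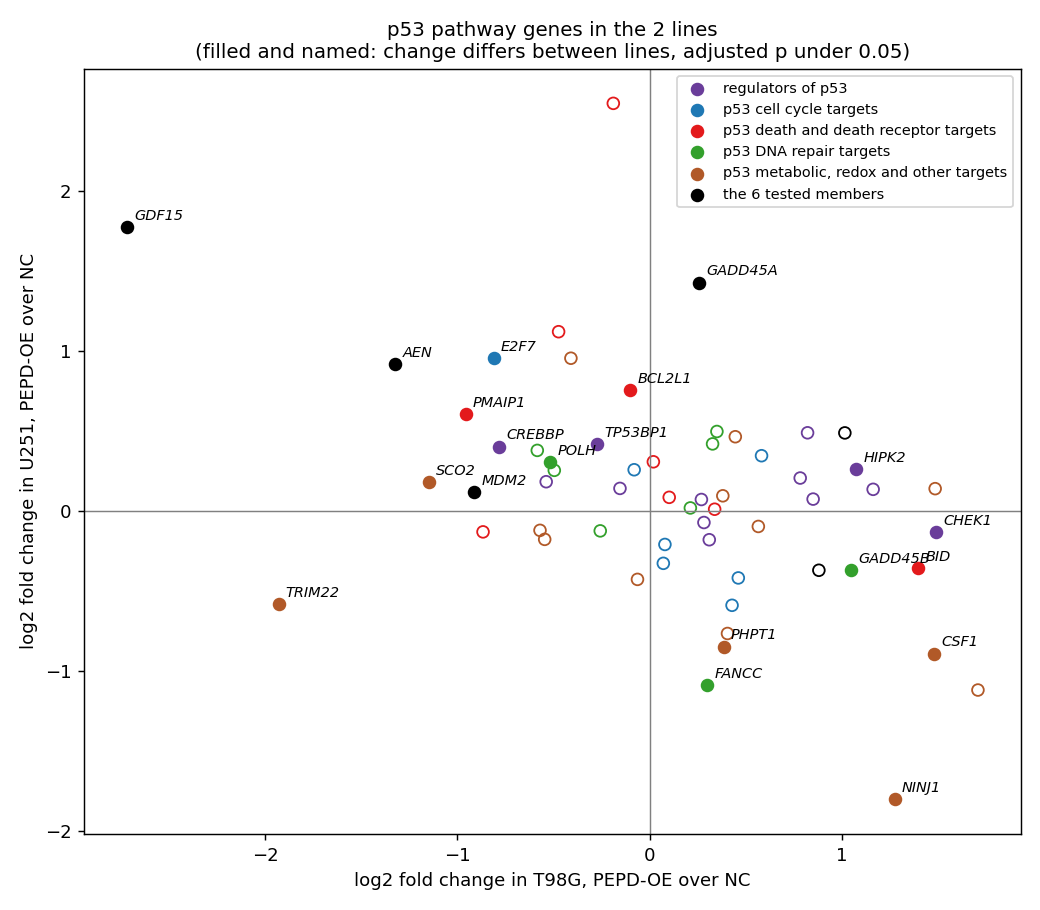
Log2 fold change of PEPD-OE over NC in T98G (x axis) and in U251 (y axis) of the 6 tested target genes (black) and 53 further p53 pathway genes, coloured by role. Filled, named points differ between lines at an adjusted p under 0.05; GDF15 lies at the upper left (lower in T98G, higher in U251), CSF1 and NINJ1 at the lower right.

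For the 4 genes with a mean of at least 20 CPM, the genes most alike over the 12 libraries were ranked among 5055 genes by Pearson's r of log2 CPM. These values describe 12 libraries that fall into 4 groups and carry no test. MDM2 was most like IGF2BP2 (r = 0.96), AKAP12 (0.96) and ASB16 (0.95). CCAR2 and MLX (0.94 each) were among the 3 genes most like GDF15. GADD45A came closest to CCN2 (0.86), CHAF1A (0.85) and VGLL4 (0.83), and FAS to TDRKH (0.91), ENO2 (0.91) and TTC28 (0.89). None of the genes named here is in the p53 lists used here.

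Markers were counted to check the lines and other cells. VIM, CD44, EGFR and GFAP were counted in all 4 groups, and U251 also had SOX2 and NES. T98G had 1 count of SOX2 in each group, 5 and 14 counts of NES, and none of S100B or OLIG2; OLIG2 was at 0 in U251 as well. Of 4 epithelial markers, EPCAM was at 0 in every group, while CLDN4 had means of 22.9 CPM in T98G NC, 101 in T98G PEPD-OE, 97.1 in U251 NC and 70.8 in U251 PEPD-OE. The 4 epithelial markers summed to 13.8 to 35.1 CPM in T98G NC libraries and 97.6 to 113 in T98G PEPD-OE, and to 77.3 to 119 and 63.0 to 91.9 in U251. The 4 fibroblast markers summed to 243 to 309 CPM in T98G NC and 541 to 666 in T98G PEPD-OE, and to 505 to 541 and 309 to 399 in U251. Most of this was COL1A2 (means of 224 and 534 CPM in T98G NC and PEPD-OE), with PDGFRB at 49.2 and 72.7 CPM in T98G and near 0 in U251; DCN was at 0 in 3 groups. The 4 macrophage markers summed to at most 58.5 CPM and the 4 endothelial markers to at most 18.1 CPM in any library, with VWF at 0. The macrophage sum was uneven between T98G libraries, at 2.85 to 56.1 CPM in PEPD-OE and 0.0 to 58.5 CPM in NC. The highest library was replicate 2 in each T98G group. In U251 NC the sum was at most 10.3 CPM and in U251 PEPD-OE at most 7.5 CPM. Whether other cells were present in the T98G libraries was not tested. The part of these markers' shifts in the results above was not tested.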

How the data were processed

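The authors deposited 1 table of raw counts per Ensembl gene, with a column for each of the 12 libraries. GRCh38, HISAT2, featureCounts, Subread, fastp and FastQC are named in the submitters' processing notes. Their versions, the annotation release and the strand setting were not given in the sources used here. Columns were matched to samples by library name.

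Counts were tested in R 4.3.3 with edgeR 4.0.16: filterByExpr (minimum count 10), TMM scaling, a robust quasi-likelihood fit with 1 mean per group over all 12 libraries (8 residual degrees of freedom), and Benjamini-Hochberg adjustment over 8773 genes. SE is the size of the log2 fold change divided by the square root of F. An exact test of 3 against 3 libraries cannot go below p = 0.1, so none was run. The code was tested on simulated counts. GENCODE release 29, matching 92.1% of the identifiers, gave positions, exons and opposite-strand overlaps. Alternatives were DESeq2 1.42.0, RLE and upper-quartile scaling, other filters, no robust estimation, each line alone, a replicate block and each library left out. The genes named were the 9 targets, PEPD, MDM4, PPM1D, opposite-strand partners, listed pathway genes called in either line (at most 4 per list, line and direction) and the 3 most alike genes. The 9 genes and the lists were chosen with earlier results of these data known, and a few genes that the rule would name are not reported here. Promoter windows came from RefSeq. The upper limit given for CDKN1A in T98G NC replicate 1 covers counting error only. SE and SD include the spread between libraries.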

Additional observations from a re-analysis of the deposited data

Results flagged for a closer look

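For 19 of the named genes the change with PEPD-OE differed between the lines by the test of the difference itself (edgeR, adjusted p under 0.05). Over all genes tested, 27.7% were called by this test. The pathway genes were named because they were called in a line, so the 19 cannot be read against that share. Values here are the T98G log2 change minus the U251 change. Among the 9 target genes these were GDF15 (-4.50), AEN (-2.24), GADD45A (-1.17) and MDM2 (-1.03). AC025423.4, opposite MDM2, differed by -0.53 ± 0.18. The AC025423.4 difference was lost with DESeq2 (adjusted p = 0.0902) and, in edgeR, with no filter (0.0515). It was also lost without T98G NC replicate 2 (adjusted p = 0.0550) or T98G PEPD-OE replicate 3 (0.0858).

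Among pathway genes whose T98G change was the higher, NINJ1 differed by 3.08, CSF1 by 2.37, BID by 1.75, CHEK1 by 1.62, GADD45B by 1.42, FANCC by 1.39, PHPT1 by 1.23 and HIPK2 by 0.81. Among those whose T98G change was the lower, PMAIP1 differed by -1.56, TRIM22 by -1.35, SCO2 by -1.33, CREBBP by -1.19, BCL2L1 by -0.86 and TP53BP1 by -0.69. DESeq2 did not call the differences of GADD45B, FANCC, PHPT1, HIPK2, TRIM22, CREBBP and BCL2L1. That of HIPK2 was also lost on leaving out T98G PEPD-OE replicate 1 (0.0522) or U251 PEPD-OE replicate 3 (0.0732). That of PHPT1 was lost without T98G NC replicate 2 (0.0564) or U251 PEPD-OE replicate 2 (0.0947). The BCL2L1 difference was lost in 12 of 19 settings. Besides DESeq2 these were RLE scaling (0.0560), a filter of 1 CPM in 3 libraries (0.0852), no filter (0.118) and any 1 of 8 libraries left out (0.0547 to 0.136).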

How the results depend on the processing

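Of 68 called changes of named genes, 32 were kept in every alternative setting that gave an adjusted p (18 to 20 settings each) and 36 were lost in at least 1; none reversed. DESeq2 called 1691 genes in T98G, 371 in U251 and 1377 for the difference (edgeR 2837, 750 and 2428), and 1, 1 and 2 of the 9 targets (GDF15; GADD45A; GDF15 and AEN); in U251 it gave no adjusted p for 8 of the 9. With 1 library left out, 2350 to 3023 genes and 2 to 4 targets were called in T98G, 440 to 742 genes and 2 targets in U251, 2116 to 2389 genes and 3 to 4 targets for the difference, and 3810 to 4510 genes and 2 to 5 targets between NC groups. The U251 count was 449 without U251 NC replicate 1, 442 without U251 NC replicate 3 and 440 without U251 PEPD-OE replicate 2. TP53I3, below the minimum count, was called between NC groups without a filter (adjusted p = 0.00301). Changes that reversed with 1 library left out had not passed the test: FAS antisense RNA 1 in T98G (-0.66 to 0.13), MDM4 in U251 (-0.31 to 0.56), the PEPD difference between lines (-0.66 to 0.36), and between NC groups PEPD (-0.45 to 0.56) and GADD45A (-0.52 to 0.0023). The cause was not tested.

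Deviations of same-numbered libraries from their group means correlated weakly, at -0.042 to 0.075 (median 0.0094, 18 pairs), against a median of -0.0070 for other pairs. Between T98G and U251 PEPD-OE, same-numbered pairs had 0.066, 0.033 and 0.075, and other pairs -0.058 to -0.0082. Pairing by replicate number was thus not excluded. With a replicate block, 2859 genes and 4 targets were called in T98G, 792 and 2 in U251, 2429 and 4 for the difference, and 4290 and 2 between NC groups, where AEN was lost.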
